A study of Mus musculus with 26 samples.

Results

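The genes described here make or bind the extracellular matrix or hold neighbouring cells together. They are 33 genes picked by name and class, with earlier results of these data known: 12 of the basement membrane, 8 of other matrix, 10 integrins and 3 cadherins. The annotation of GRCm38 holds 21911 protein-coding genes, and all 33 were found in it. Of the 33, 8 have a row in the deposited RNA-seq table, which lists 2189 genes in all, and the others are called not listed.

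Basement membranes are thin sheets of type IV collagen and laminin, joined by nidogens and the heparan sulfate proteoglycan perlecan. Integrins are receptors of an alpha and a beta chain that bind matrix proteins such as laminins, collagens or fibronectin outside the cell. Inside it, most of them bind the actin cytoskeleton. Classical cadherins join like cells through calcium-dependent binding. In the early embryo, laminin is part of the first basement membranes, and E-cadherin keeps embryonic stem cells in compact colonies.

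E14 mouse embryonic stem cells were grown without feeder cells and at low passage in medium with serum and leukemia inhibitory factor (LIF), a cytokine that keeps them pluripotent. For the last 4 h the cells received either fresh medium with LIF (mESC+) or medium without LIF and with 1 µM retinoic acid (mESC-), which acts through nuclear receptors and drives stem cells out of pluripotency. RNA-seq has 3 libraries per state, ATAC-seq, which marks open chromatin through the insertions of a transposase, has 1 per state, and the enhancer calls rest on 4 ChIP-seq libraries per state, 1 each for H3K4me1, H3K4me3, H3K27ac and input. Both states come from the same single line, so the differences below compare libraries of 1 line and, outside RNA-seq, have no replicate check.

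The mESC+ peak list is longer, with 163484 peaks against 141465 in mESC-, and read depths are unknown. The labelled cell type was checked on markers. Of all protein-coding genes, 67.7% had a peak at the promoter in mESC+ and 66.4% in mESC-. Of 10 markers of mouse embryonic stem cells, 9 had one in both lists (Esrrb had none). The promoter percentile of the 10 markers, a rank explained below, had a median of 33.9 in both lists. Over all protein-coding genes the median was 61.6 in mESC+ and 59.4 in mESC-. Of the 10 markers, 4 were listed (Sox2, Zfp42, Klf4 and Tdgf1, between 934 and 9813 per kb of exon, the unit of level explained below). Of 8 fibroblast markers, 4 had a promoter peak in mESC+ and 5 in mESC-, and Thy1 and Pdgfrb were listed, at 42.0 and 29.1 per kb. Of 7 markers of primitive or parietal endoderm, cells that make much basement membrane, 4 and 5 had one, and Gata6, Sox7 and Pth1r were listed, at 8.31 to 23.2 per kb. The part of such cells in the values below was not tested.

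Promoter sequences were read for motifs, and the promoter peaks measured below need not lie inside them. That of Lamb2, for example, lies outside. RefSeq promoters of GRCm38.p6, from 250 bases before to 50 after a gene's start, were matched for 21 of the 33 genes. Col4a1, Col4a2, Col4a5, Col18a1, Lama5, Lamb1, Lamb2, Nid1, Hspg2, Col1a2, Col3a1, Sparc, Vcan, Tnc, Itga1, Itga3, Itga5, Itga9, Itgav, Itgb1 and Itgb5 were matched, and Lama1, Lamc1, Nid2, Col1a1, Fn1, Thbs1, Itga6, Itgb3, Itgb4, Cdh1, Cdh2 and Cdh3 were not. For 17 of the 21, the RefSeq start lay within 100 bp of the start of the gene annotation used for peaks. The promoters of 5 genes are shown because a result below turns on them: the shared start of the type IV collagen pair, the largest differences between the peak lists in each direction (Itgb5 and Col4a5), and 2 listed integrins whose promoter peaks differed (Itga1 and Itga3). Capitals mark GC boxes (GGGCGG, the binding sequence of SP1-type factors) and Snail-type E-boxes (CAGGTG), on either strand, and each line reads 5′ to 3′ in the direction of the gene.
Col4a1, chr8:11312777-11313076, minus strand: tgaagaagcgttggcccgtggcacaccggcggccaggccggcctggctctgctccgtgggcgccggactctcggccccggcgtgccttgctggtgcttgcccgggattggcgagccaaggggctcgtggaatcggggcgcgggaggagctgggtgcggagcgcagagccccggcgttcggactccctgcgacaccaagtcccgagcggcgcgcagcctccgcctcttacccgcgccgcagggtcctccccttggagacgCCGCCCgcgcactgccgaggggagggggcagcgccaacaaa
Itgb5, chr16:33829415-33829714, plus strand: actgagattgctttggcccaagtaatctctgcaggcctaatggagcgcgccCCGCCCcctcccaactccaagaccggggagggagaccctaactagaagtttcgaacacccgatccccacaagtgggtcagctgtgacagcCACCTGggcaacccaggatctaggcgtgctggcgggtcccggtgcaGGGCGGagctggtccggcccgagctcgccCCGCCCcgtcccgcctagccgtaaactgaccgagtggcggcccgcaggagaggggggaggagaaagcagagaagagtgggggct
Col4a5, chrX:141475169-141475468, plus strand: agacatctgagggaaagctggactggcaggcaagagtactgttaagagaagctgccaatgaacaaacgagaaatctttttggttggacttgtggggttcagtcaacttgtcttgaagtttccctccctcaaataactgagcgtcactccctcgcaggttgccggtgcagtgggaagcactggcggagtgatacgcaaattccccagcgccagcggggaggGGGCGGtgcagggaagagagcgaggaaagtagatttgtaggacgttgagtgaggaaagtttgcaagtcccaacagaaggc
Itga1, chr13:115101915-115102214, minus strand: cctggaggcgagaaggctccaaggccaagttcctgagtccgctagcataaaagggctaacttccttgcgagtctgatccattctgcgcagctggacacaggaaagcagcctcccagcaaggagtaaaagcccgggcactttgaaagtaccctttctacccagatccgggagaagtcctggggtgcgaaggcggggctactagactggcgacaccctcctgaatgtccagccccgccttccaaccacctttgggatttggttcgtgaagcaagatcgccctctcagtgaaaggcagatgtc
Itga3, chr11:95076665-95076964, minus strand: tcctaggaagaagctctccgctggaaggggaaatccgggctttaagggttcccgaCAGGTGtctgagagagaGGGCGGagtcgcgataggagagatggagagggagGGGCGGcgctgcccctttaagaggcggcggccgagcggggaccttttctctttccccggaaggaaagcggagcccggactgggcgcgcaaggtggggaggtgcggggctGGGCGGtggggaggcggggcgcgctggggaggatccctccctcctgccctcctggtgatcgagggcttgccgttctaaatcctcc

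The GC content of the 21 matched promoters ranged from 37.7% (Col3a1) to 74.0% (Col4a1), with a median of 63.3%, beside 57.0% over 20125 promoters of protein-coding genes. A GC box was present in 16 of the 21 (76.2%, beside 47.7% of all those promoters). It was absent from Lamb2, Col3a1, Sparc, Itga1 and Itga9. A Snail-type E-box was present in 5 (23.8%, beside 19.7%), namely Lama5, Sparc, Itga3, Itga9 and Itgb5. The AP-1 site TGANTCA was found in 1 (Itga9, beside 1409 of all 20125, in a RefSeq promoter 105002 bp from the start at which its peak was read) and the octamer ATGCNAAT in 2 (Col3a1 and Tnc, beside 2.74%). The retinoic acid response element, searched as direct repeats spaced by 5 or 2 bases with at most 1 mismatch, was found in 0 of 21, beside 2.97% of all. The motifs were searched on both strands, in 0 of the 21 promoters did matches of different motifs overlap, and a match describes letters only.

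The RNA-seq table gives a mean level for each listed gene over all 6 libraries of both states, with no value per library. It lists only genes that passed a cut-off of the authors' comparison of the states, so a row is itself an outcome of that comparison, and the level of a gene without a row is unknown. The 8 listed genes are 24.2% of the 33, beside 9.05% of all protein-coding genes. Among genes with a promoter peak in either ATAC-seq list, 8 of 31 were listed (25.8%, beside 12.0%). The genes were chosen with earlier results of these data known, and whether that bears on these shares was not tested. By class, 3 of 12 basement membrane genes (Col4a1, Lama1 and Lamc1), 0 of 8 other matrix genes, 4 of 10 integrins (Itga1, Itga3, Itga5 and Itga6) and 1 of 3 cadherins (Cdh2) were listed. The listed integrins were all alpha chains, and none of the beta chains Itgb1, Itgb3, Itgb4 and Itgb5 had a row. These are classes of 3 to 12 genes, and no test was made between them.

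Levels were compared between genes per kb of exon, as the authors' mean of normalized counts divided by the summed exon length. Lamc1, the gamma chain found in most laminins, was highest among the 8, with a mean of 20905.7 over 8272 bp of exon, or 2527.28 per kb. Of all listed protein-coding genes, 97.6% lay below it. Its partner Lama1, the alpha chain of the laminin of the early embryo, had a mean of 2842.25 and a level of 294 per kb, above 66.7% of listed genes. The beta chain of that trimer, Lamb1, was not listed. Col4a1, a type IV collagen chain of nearly every basement membrane, had a mean of 709.725 and 95.1 per kb, above 41.5%. Its partner chain Col4a2 was not listed.

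Itga5, the alpha chain of the fibronectin receptor, had a mean of 3780.82 and 766 per kb. Itga6, a laminin receptor chain, had a mean of 6135.46 and 680 per kb. Itga3, another laminin receptor chain, had a mean of 3311.85 and 580 per kb. These lay above 81.4% to 86.2% of listed genes, and without a spread between libraries their order cannot be told from error. It also depends on the length used, since per kb of the longest transcript Itga6 lay at 1423.54, Itga5 at 856 and Itga3 at 681. Itga1, a collagen receptor chain, had a mean of 246.525 and only 13.3 per kb, above 10.3% of listed genes. Lamc1 lay 190.67-fold above Itga1 per kb of exon and 122.02-fold above it per kb of the longest transcript. Cdh2, which encodes N-cadherin, had a mean of 348.468 and 43.2 per kb, above 25.7%. In bulk RNA, fewer cells of a type and less RNA per cell cannot be told apart, which bears most on the low genes Itga1 and Cdh2.

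**Figure D1:**
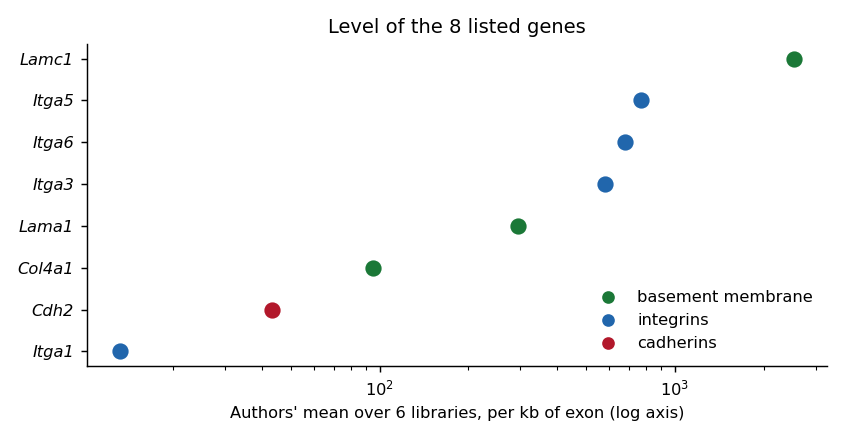
Level of each of the 8 listed genes on a log axis, as the authors' mean over 6 libraries per kb of exon, with 1 point per gene coloured by class and no error bar because the table gives none. Lamc1 lies at 2527.28, 3 integrins between 580 and 766, and Itga1 lowest at 13.3.

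ATAC-seq peaks give a value for each state and cover the unlisted genes as well. A gene was given a promoter peak if a peak overlapped the 1 kb on either side of its annotated start. Fold enrichments over background, as the peak caller wrote them, are not on one scale between libraries, so the strongest promoter peak was ranked by its percentile within its own list, and a gene without a peak was set to 0. In mESC+, 31 of 33 genes had a promoter peak (93.9%, beside 67.7% of protein-coding genes), and in mESC- 30 had one (90.9%, beside 66.4%). The mESC+ list alone held a peak at 1 gene, Sparc (3.03%, beside 2.05%), and the mESC- list alone at 0 genes (beside 0.753%). Nid1, a nidogen, and Col3a1, a fibrillar collagen, had none in either list.

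The class medians of the promoter percentile, with genes lacking a peak included, were 61.4 in mESC+ and 58.4 in mESC- for basement membrane genes, 50.4 and 55.3 for other matrix, 76.3 and 76.2 for integrins and 56.1 and 80.7 for cadherins. Over all protein-coding genes, counted the same way, they were 61.6 and 59.4. Among genes with a promoter peak, the median of the members was 64.4 in mESC+ and 62.3 in mESC-, beside 79.1 and 78.3 over all protein-coding genes. Highest of the 33 in both lists was Itgb1, the beta chain that most alpha chains here pair with, at 92.2 in mESC+ and 95.0 in mESC-. Itgav, the alpha chain that binds vitronectin and fibronectin, ranked at 85.5 and 80.1, and Itga6 at 81.0 and 84.2. Cdh1, which encodes E-cadherin, ranked at 81.7 in mESC+ and 81.0 in mESC-. Tnc, a matrix glycoprotein, ranked at 82.2 and 77.2. At the low end, Lama5, a laminin alpha chain, ranked at 9.41 and 7.81. A stronger Lama5 peak lay at -1.79 kb from the start, outside the 1 kb window, and ranked at 69.6 and 66.5.

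A difference of at least 10 percentile points was called. Higher in mESC- were 6 genes (18.2% of the 33, beside 5.95% of protein-coding genes), and higher in mESC+ were also 6 (18.2%, beside 11.5%). Genes without a peak in either list cannot be called, and they are 2 of the 33 but 6911 of the 21911 protein-coding genes. Among genes with a promoter peak in either list, 6 of 31 were higher in mESC-, beside 1304 of 15000. Higher in mESC+ were 6 of 31, beside 2518 of 15000. The members with a peak started from a lower median rank in mESC+, 64.4 against 79.1. A peak near the top of its list cannot rise by 10 points, and the part of this in the counts was not tested. With 1 library per state these calls compare libraries, and no test was possible. The genes were also chosen with earlier results of these data known. The 21 other genes, Nid1 and Col3a1 without a peak among them, differed by less than 10 points.

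Itgb5, the beta chain of a vitronectin receptor, had the largest difference of the 33 in the full lists. Within the top 50000 peaks of each list the difference was 17.3 points, below those of Itga1 (48.7), Cdh2 (45.5) and Cdh3 (34.3). The mESC+ peaks of Itgb5, Cdh2 and Cdh3 fall outside that top, so their differences there are the mESC- rank alone. They do not compare the sizes of the shifts. The Itgb5 promoter peak, joined over both lists at chr16:33829503-33829687, lies inside the promoter printed above. It covers 2 of the 3 GC boxes, the E-box and the start. The fold enrichment was 4.03 in mESC+ and 8.78 in mESC-, and the percentile was 8.78 in mESC+ and 70.8 in mESC-, a difference of 62.0 points. The next 2 peaks of the gene, 0.303 and 0.636 kb inside it, also ranked higher in mESC-, at 23.8 and 23.6 against 2.16 and 3.32. Itgb5 was not listed in the RNA-seq table.

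Among the cadherins, 2 of 3 ranked higher in mESC-. For Cdh2, the strongest peak lay 0.7 kb inside the gene, with a fold enrichment of 7.24 in mESC+ and 10.4 in mESC-, or percentiles of 56.1 and 80.7. For Cdh3, which encodes P-cadherin, the fold enrichments were 7.17 and 9.60, and the percentiles 55.7 and 76.8. Both Cdh3 peaks upstream, outside the 1 kb window, went the other way. They ranked at 48.97 in mESC+ against 11.96 in mESC-, and at 69.40 against 45.93. The next Cdh3 peak inside the gene hardly differed, at 0.567 and 0.515. Cdh1 differed by -0.789 points (mESC- minus mESC+). The remaining genes higher in mESC- were Vcan, a large chondroitin sulfate proteoglycan (42.8 and 58.5), Hspg2, which encodes perlecan (13.7 and 27.5), and Itga1 (70.1 and 82.6). Ranked by −log10 p, these 3 lost the call, with differences of 7.60 points for Vcan, 6.93 for Hspg2 and 7.84 for Itga1. The direction of Hspg2 held only near the start. When peaks within 2 kb were allowed, its difference, mESC- minus mESC+, was -11.7 points. When peaks at the start of any coding transcript were allowed, Cdh2 and Vcan ranked higher in mESC+. Cdh2 then ranked at 84.0 in mESC+, at a peak 139 kb inside the gene, and at 80.7 in mESC-. Vcan then ranked at 64.8 in mESC+ and 58.5 in mESC-. Itgb5, Cdh3, Hspg2 and Itga1 kept their direction.

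Of the genes higher in mESC+, Col4a5, an X-linked type IV collagen chain, had the largest difference in the full lists. Within the top 50000 peaks Lamb2 differed more (-37.9 against -32.3 points), and ranked by −log10 p Sparc did (-32.7 against -31.5). The mESC- peaks of Col4a5 and Lamb2 fall outside that top, so their differences there are the mESC+ rank alone. The fold enrichment of the Col4a5 promoter peak was 10.5 in mESC+ and 6.52 in mESC-, with percentiles of 79.3 and 49.2. Lamb2, a laminin beta chain, ranked at 81.0 in mESC+ and 53.5 in mESC-, at a peak whose summit lies at -797 bp from the start. Itgb3, the beta chain of a vitronectin receptor of platelets and bone cells, ranked at 75.6 in mESC+ and 60.2 in mESC-. Itga3 ranked at 77.0 and 64.3, and Thbs1, which encodes the matricellular protein thrombospondin, at 68.8 and 57.6. Sparc, a collagen-binding matricellular protein, had a weak peak in mESC+ only (fold enrichment 4.66, percentile 19.5). The RefSeq start of Sparc lies 3103 bp inside the gene, and the peak there ranked at 86.0 in mESC+ and 85.9 in mESC-, so its call rests on the outermost annotated start.

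**Figure D2:**
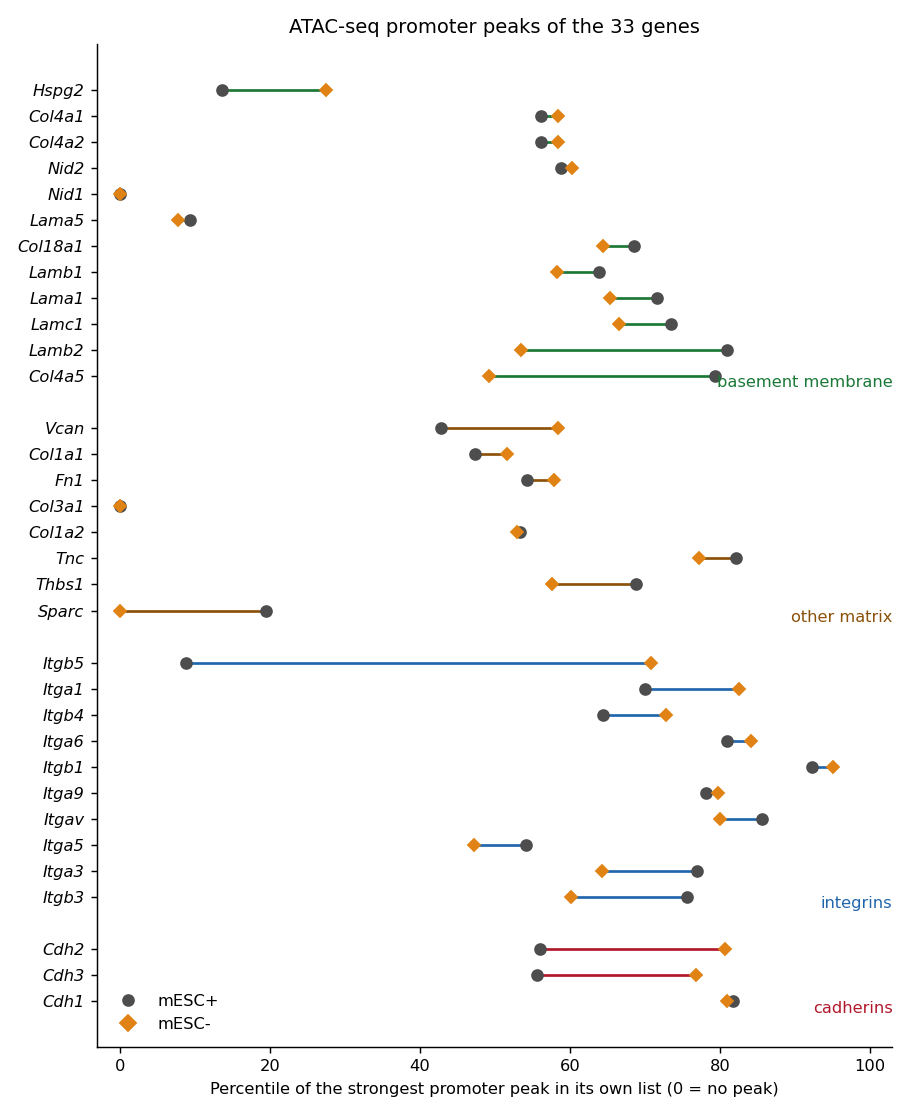
Percentile of the strongest ATAC-seq promoter peak of each of the 33 genes within its own peak list, with mESC+ as grey circles and mESC- as orange diamonds joined by a line, sorted by difference within each class, from 1 library per state. Itgb5 spans 8.78 to 70.8, Cdh2 and Cdh3 lie higher in mESC-, and Col4a5 and Lamb2 higher in mESC+.

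The promoters of the listed genes differed in both directions. Of the 8, Itga1 and Cdh2 ranked higher in mESC- by the 10-point call, Itga3 ranked higher in mESC+, and the other 5 differed by less than 10 points. For Itga6 this holds only at the outermost annotated start. At the starts of its coding transcripts it ranked at 66.0 in mESC+ and 43.7 in mESC-, at peaks 41.4 and 41.1 kb inside the gene. Ranked by −log10 p, the calls of Itga1 (7.84 points) and Itga3 (-9.06) were lost, and within the top 50000 peaks their differences were 48.7 and -24.7. The mESC- peak of Itga3 falls outside that top, so its difference there is the mESC+ rank alone. Lamc1 ranked at 73.5 in mESC+ and 66.5 in mESC-, Lama1 at 71.6 and 65.4, and Itga5 at 54.1 and 47.2. Col4a1 ranked at 56.2 and 58.4. That peak is also the promoter peak of Col4a2, since the 2 genes start 21 bp apart on opposite strands and their first bases overlap. In the Col4a1 sequence above, Col4a1 starts at base 251 and Col4a2 at base 272, counted from the 5′ end. The 2 genes therefore share all promoter values, whereas only Col4a1 was listed.

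Beyond the promoters, peaks were counted within each gene and 10 kb on either side. The members had 453 such peaks in mESC+, of which 257 lay in introns, 100 over exons, 43 upstream and 53 downstream. In mESC- they had 392, of which 219 lay in introns. Of the mESC+ peaks, 121 (26.7%) overlapped no mESC- peak, beside 25.1% around all protein-coding genes. Of the mESC- peaks, 51 (13.0%) overlapped no mESC+ peak, beside 13.4%. Both shares were near their background. Peaks of the mESC+ list alone had a median percentile of 20.5, against 56.0 for shared peaks, beside 21.5 and 60.9 around all protein-coding genes. Peaks of the mESC- list alone had a median of 9.03, against 49.2 for shared peaks, beside 18.9 and 55.0.

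Overlapping peaks of the lists were joined into 499 loci, 327 of them present in both. At these, the median difference of the percentile, mESC- minus mESC+, was -4.13 points, beside -2.48 around all protein-coding genes. At 20 loci (6.12%, beside 6.44%) the percentile was at least 20 points higher in mESC-, and at 51 (15.6%, beside 14.8%) at least 20 points higher in mESC+. By class, the loci at least 20 points higher in mESC+ were 23 of 121 for basement membrane, 4 of 47 for other matrix, 19 of 119 for integrins and 5 of 40 for cadherins. Those at least 20 points higher in mESC- were 5, 4, 9 and 2 in the same order of classes. Itga9, an integrin alpha chain that binds tenascin and the longest gene of the set at 294 kb, had 8 of the 51.

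The number of loci per gene ranged from 3 (Col3a1) to 35 (Itga9). Itgb1 had 4, all in both lists. Cdh2 had 21, of which 10 were in the mESC+ list alone, 1 in the mESC- list alone and 10 in both, while its promoter peak ranked higher in mESC-. Itgb5 had 27, of which 10 were in the mESC+ list alone and 4 in the mESC- list alone, again with a promoter that ranked higher in mESC-. Col18a1, the source of endostatin, had 32 loci, 8 of them in mESC+ alone and 5 in mESC- alone. Cdh1 had 22, of which 2 were in mESC+ alone and 4 in mESC- alone.

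**Figure D3:**
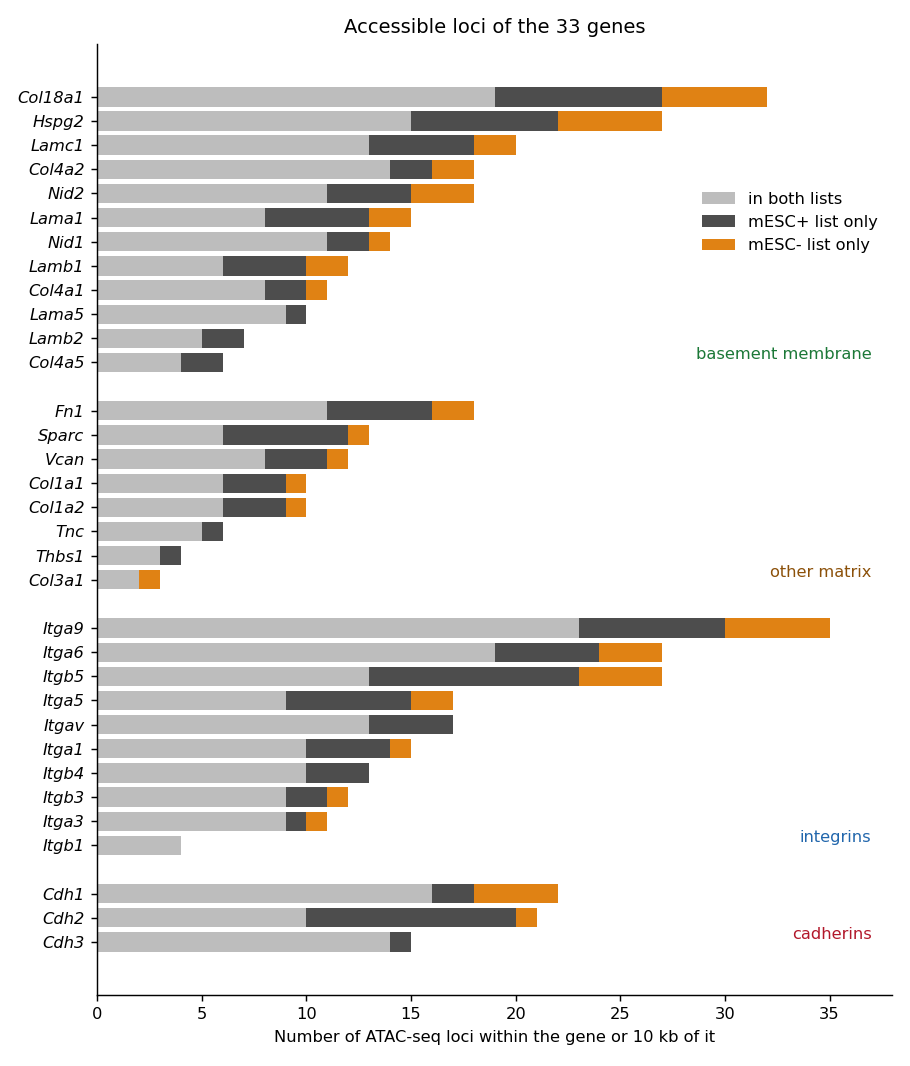
Number of ATAC-seq loci within each of the 33 genes or 10 kb of it, as stacked bars of loci in both lists (light grey), in the mESC+ list only (dark grey) and in the mESC- list only (orange). Itga9 has the most loci, 35, and Cdh2 and Itgb5 each have 10 in the mESC+ list only.

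The 10 peaks of 1 list with the highest fold enrichment were all in mESC+, although fold enrichments of the lists are not on one scale. By percentile within their own list these 10 lay between 57.5 and 74.4, and the highest peak of mESC- alone, in an intron of Itga6, at 49.2. The first and the third lie in introns of Cdh2, 181 and 55.0 kb inside the gene, with fold enrichments of 9.55 and 8.42. The second lies in an intron of Col4a1, with a fold enrichment of 8.98 and a percentile of 70.9. Itgb5 holds 2 of the 10, chr16:33879137-33879296 (8.05) and chr16:33895827-33896013 (7.85). Col4a5 holds chrX:141569417-141569545 (7.86) and Col4a2 chr8:11438171-11438346 (7.44). Lama1 holds chr17:67776836-67777024, over an exon (7.39), Lamb1 chr12:31275642-31275811 (7.32) and Itgav chr2:83748505-83748636 (7.30). The Col4a1 peak is printed on the plus strand as the strongest of these with sequence shown, and it holds none of the motifs searched.
Col4a1 intron, chr8:11227493-11227651: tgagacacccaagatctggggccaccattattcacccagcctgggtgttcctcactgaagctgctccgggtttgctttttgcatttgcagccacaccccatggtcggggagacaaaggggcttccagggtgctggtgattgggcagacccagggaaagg

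**Figure D4:**
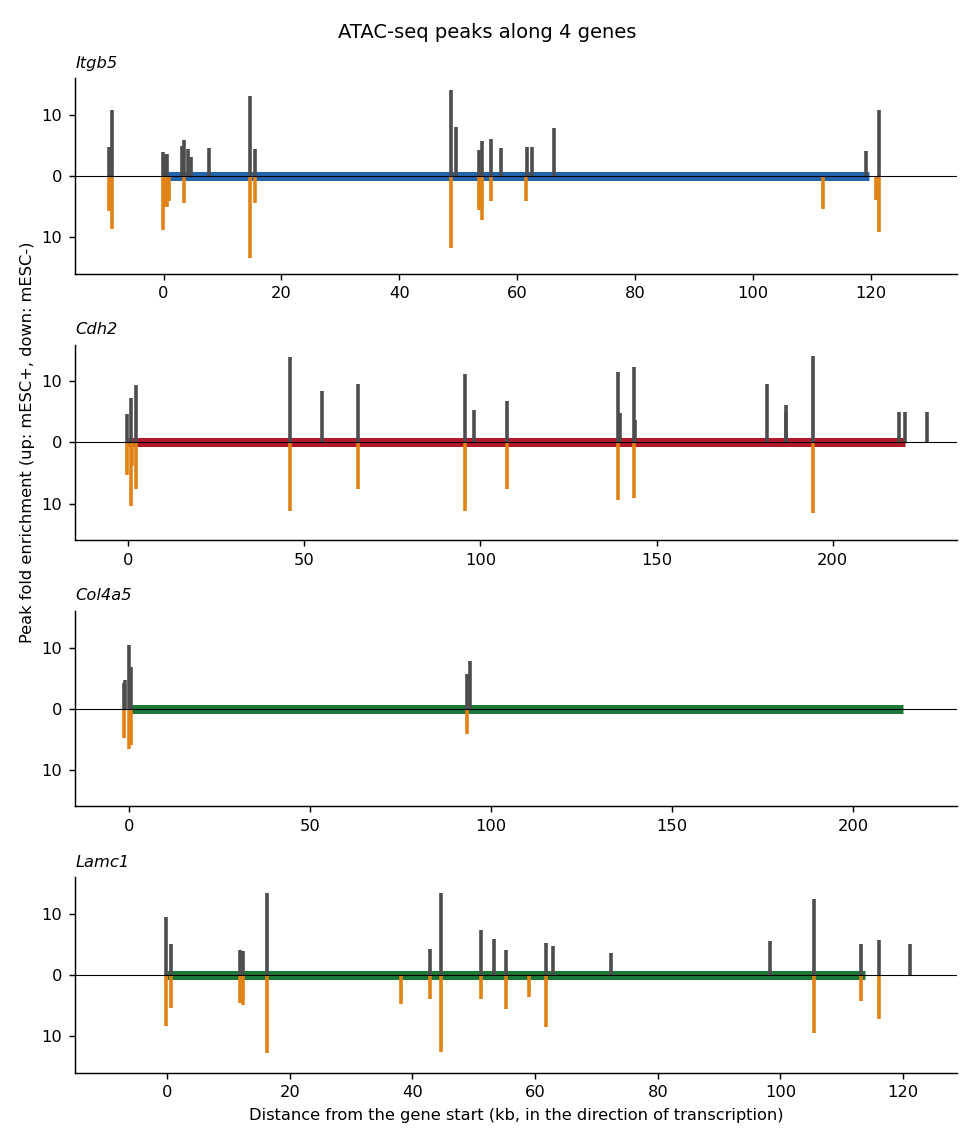
ATAC-seq loci along Itgb5, Cdh2, Col4a5 and Lamc1, with distance from the gene start in kb on the horizontal axis, the gene as a coloured bar, and the highest peak fold enrichment at each locus drawn upwards for mESC+ (grey) and downwards for mESC- (orange), scales that are not comparable between the libraries. At the start of Itgb5 the orange line reaches 8.78 and the grey line 4.03, and Cdh2 has 10 grey lines with no orange partner.

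The enhancer calls list 327 dynamic regions, 186 with a high enhancer probability in mESC+ and 141 in mESC-. The probability is a fraction from the authors' random forest on the 3 histone modifications. Of the 8 listed genes, 0 had a dynamic region within 100 kb, beside 3.58% of listed protein-coding genes with a region active in mESC+ and 7.81% with one active in mESC-. Of the 33, 1 had one, the unlisted Nid2, which encodes a nidogen (3.03%, beside 2.11% of protein-coding genes with a region active in mESC+). For regions active in mESC- the count was 0 (beside 2.56%). Up to 250 kb, the listed Itga3 was added, 196.7 kb from a region inside Kat7 whose probability was 0.862 for mESC+ and 0.0085 for mESC-.

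The region near Nid2 is chr14:19857501-19862700, 5200 bp long, and its probability was 0.893 in mESC+ and 0 in mESC-. It lies 45.7 kb beyond the end of Nid2 and 106 kb from its start, outside protein-coding genes, and the nearest start is that of Rtraf at 36.3 kb. Open chromatin was present there in both states, with 3 peaks in mESC+ (highest fold enrichment 7.93, percentile 63.8) and 4 in mESC- (7.60, percentile 60.7). The promoter peak of Nid2 ranked at 58.8 in mESC+ and 60.3 in mESC-. The 300 bases around the summit of the strongest mESC+ peak in the region are shown on the plus strand, because it is the one dynamic region within reach of these genes. They hold 2 AP-1 sites and 1 Snail-type E-box, in capitals. The same AP-1 letters occur in the central 300 bases of 10.4% of the 327 regions and the E-box in 29.1%, and the central 300 bases of this region hold the E-box letters only.
Nid2 downstream region, chr14:19861309-19861608: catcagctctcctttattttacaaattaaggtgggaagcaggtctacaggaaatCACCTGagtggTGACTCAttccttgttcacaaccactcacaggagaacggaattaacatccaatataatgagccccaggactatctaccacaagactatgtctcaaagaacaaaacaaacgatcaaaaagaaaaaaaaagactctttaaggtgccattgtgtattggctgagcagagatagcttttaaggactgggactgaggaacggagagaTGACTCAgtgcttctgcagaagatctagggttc

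The same readings were made for related genes, beside 9.05% of protein-coding genes listed. Of 17 other basement membrane genes, 3 were listed: Dag1, which encodes dystroglycan, a laminin receptor (1693 per kb), Agrn, which encodes agrin (1265), and Lama3 (25.2). Of 20 further matrix genes, 3 were listed, with Spp1, which encodes osteopontin, at 4990 per kb, Fbln1 at 464 and Eln, which encodes elastin, at 5.17. Of 11 other integrins, 0 were listed. Of 9 other cadherins, the desmosomal genes Dsg2 and Dsc2 were listed (203 and 17.8 per kb), and both ranked at least 10 points higher in mESC- at the promoter, at 81.1 against 59.5 and at 86.3 against 72.9. The unlisted Celsr1 and Pcdh1 ranked at least 10 points higher in mESC+, at 71.6 against 59.1 and at 28.8 against 17.2. Of 18 genes of matrix processing, 5 were listed, at 19.8 to 542 per kb, among them the metalloproteinases Mmp2 and Mmp9 and their inhibitors Timp1 and Timp2. Of 13 genes that link integrins or cadherins to the cytoskeleton, 5 were listed, from Ctnnd1, Fermt1 and Parva to Tln1, which encodes talin (821), and Jup, which encodes plakoglobin (1086). Promoters at least 10 points higher in mESC+ numbered 1 of the 17, 7 of the 20, 2 of the 11, 5 of the 18 and 2 of the 13 (beside 11.5% of protein-coding genes). In the same order, those higher in mESC- numbered 0, 2, 0, 1 and 1 (beside 5.95%). Dynamic regions lay within 100 kb of Itgb7, Serpinh1, P4ha2 and Loxl1 (active in mESC-) and Cdh4 (active in mESC+), none of them listed, beside 2.56% and 2.11% of protein-coding genes with a region active in mESC- and in mESC+.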

How the data were processed

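RNA-seq of 6 libraries, ATAC-seq of 1 library per state and CRUP enhancer calls from 4 ChIP-seq libraries per state were used, and the remaining ChIP-seq libraries did not enter. For RNA-seq, the authors aligned paired-end reads of 50 bp to GRCm38 (BWA-MEM) and compared the states with DESeq2. The deposited table gives a mean normalized signal, which was used, and a log2 fold change, its standard error, a test statistic and p-values of the authors' comparison, which were not used, so no direction of RNA is given. For ATAC-seq, the authors removed duplicates with SAMtools and called peaks per library with MACS2, whose parameters are not given in the sources used here. Per peak, the deposited lists give a fold enrichment ratio and −log10 p and q values. The enhancer probability is a fraction that the authors computed with CRUP from reads mapped with STAR, and the p-values and cluster labels deposited with it were not used.

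Peaks were assigned with an overlap of at least 1 bp, and genes, exons and starts came from the GENCODE annotation of GRCm38. All 33 genes are named. Peaks of 1 list were named by the 10 highest fold enrichments, and promoters by the 5 largest differences in each direction. The remaining calls and the loci at Itgb5 were named after their values were seen. The members and lists were chosen with earlier results of these data known. The result of 1 gene of the list of other basement membrane genes is not reported here. No test was made, since each state has 1 ATAC-seq library and the table has no value per library. Depths are unknown. The functions for overlap, percentile, distance and motifs passed 8 of 8 checks on simulated data. Python 3.11.15, NumPy 2.4.6, pandas 2.3.3, pysam 0.24.0 and matplotlib 3.10.9 were used.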

Additional observations from a re-analysis of the deposited data

How the results depend on the processing

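Each state has 1 ATAC-seq library and the RNA-seq table no value per library, hence leaving out a replicate was not possible and no call has an error. No paired analysis was possible because no result comes from a test and the RNA-seq column pools the libraries. Read depths are unknown.

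Within the top 50000 peaks of each list, 13 genes had a promoter peak in mESC+ and 13 in mESC-, not all of them the same genes. There, 22 and 24 peaks were found in the mESC+ and the mESC- list alone. With a −log10 q of at least 10, these were 64 and 11. Promoters higher in mESC- numbered 3 when ranked by −log10 p and 3 at a threshold of 20 points, and those higher in mESC+ numbered 2 at 20 points and 11 at 5 points. Of the 12 genes called, 12 kept their direction when ranked by −log10 p, 8 with the call (lost for Vcan, Hspg2, Itga1 and Itga3). Hspg2 was reversed when peaks within 2 kb were used, with a difference of -11.7 points. Cdh2 and Vcan were reversed when peaks at the start of any coding transcript were used. With those peaks the uncalled Itga6 ranked at 66.0 in mESC+ and 43.7 in mESC-, and the uncalled Col18a1 at 68.6 and 83.1. Measured to the gene start, 0 genes lay within 100 kb of a region active in mESC+, and within 250 kb 2 did. Per kb of the longest transcript, levels were 2742.81 for Lamc1, 1423.54 for Itga6, 856 for Itga5, 681 for Itga3, 298 for Lama1, 107 for Col4a1, 72.0 for Cdh2 and 22.5 for Itga1, which places Itga6 above Itga5. The cause of these changes was not tested beyond what each setting removes.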
